A study of Mus musculus with 2 samples.

Results

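Hand1, Hand2, Tcf15, Tcf21, Mesp1, Mesp2 and Msgn1 encode basic helix-loop-helix transcription factors of the mesoderm. They were taken by their symbols (HAND1, HAND2, TCF15, TCF21, MESP1, MESP2 and MSGN1 in the tables), and all 7 were found among the 34126 gene symbols of the gene table, with 8 promoter rows and 9 transcript rows. The data are poly(A) RNA sequencing of E14 mouse embryonic stem (ES) cells, a 129P2/OlaHsd line, at passage 29. The Undifferentiated library came from cells kept on mitomycin C-treated embryonic fibroblast feeders with 15% serum and leukaemia inhibitory factor. The Differentiated library came from cells grown without feeders for 4.5 days in 10% serum with retinoic acid (the all-trans form) at 0.1 µM, and is a mixed population per the labels. Each condition is 1 library of 1 culture, read on 2 lanes, so no test between the conditions exists and each difference below is a difference between these 2 libraries. Values are RPKM (reads scaled by model length and lane depth) as the authors deposited them, and ± gives the SD between both lanes of 1 library, which holds no variation between cultures.

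Basic helix-loop-helix proteins bind DNA as dimers at E-boxes, short sites of the form CANNTG. Tissue-restricted (class B) members pair with the widely expressed E-proteins, and Id proteins, which lack the DNA-binding basic region, tie up E-proteins and so hold the pairs back. In the embryo Mesp1 and Mesp2 mark mesoderm leaving the primitive streak and forming segments, Msgn1 and Tcf15 act in the paraxial mesoderm that makes somites, and Hand1, Hand2 and Tcf21 act in lateral plate derivatives such as heart, limb and the lining of organs. Tcf15 is also expressed by mouse ES cells that are primed to differentiate, and Hand1 by trophoblast and extraembryonic mesoderm.

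Start site regions are shown for 2 members that were nearly without reads before differentiation and present after it, Hand2 and Tcf21, and for the neighbours Mesp1 and Mesp2, which stayed below 1 RPKM in both libraries. RefSeq sequences on build GRCm38.p6 were found for 5 of the 7 members, not for Hand1 and Tcf15. Each runs from 250 bases before to 50 bases after the gene's start, 5′ to 3′ on the gene's strand. The Hand2 region is chr8:57320733-57321032 (+), that of Tcf21 chr10:22820094-22820393 (-), that of Mesp1 chr7:79793541-79793840 (-) and that of Mesp2 chr7:79810477-79810776 (+). Capitals mark E-boxes (CANNTG) and the GATA motif AGATAA, searched on both strands.
Hand2: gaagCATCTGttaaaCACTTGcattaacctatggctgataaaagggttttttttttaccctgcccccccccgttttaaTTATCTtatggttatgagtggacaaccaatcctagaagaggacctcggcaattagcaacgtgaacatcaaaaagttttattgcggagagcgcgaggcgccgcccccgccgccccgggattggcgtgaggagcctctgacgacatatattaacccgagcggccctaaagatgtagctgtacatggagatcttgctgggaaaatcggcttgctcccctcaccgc
Tcf21: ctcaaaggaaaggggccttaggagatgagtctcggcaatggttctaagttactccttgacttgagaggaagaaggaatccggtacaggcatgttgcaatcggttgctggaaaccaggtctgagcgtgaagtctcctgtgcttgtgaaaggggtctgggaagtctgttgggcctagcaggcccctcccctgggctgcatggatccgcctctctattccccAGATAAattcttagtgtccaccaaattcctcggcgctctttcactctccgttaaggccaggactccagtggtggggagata
Mesp1: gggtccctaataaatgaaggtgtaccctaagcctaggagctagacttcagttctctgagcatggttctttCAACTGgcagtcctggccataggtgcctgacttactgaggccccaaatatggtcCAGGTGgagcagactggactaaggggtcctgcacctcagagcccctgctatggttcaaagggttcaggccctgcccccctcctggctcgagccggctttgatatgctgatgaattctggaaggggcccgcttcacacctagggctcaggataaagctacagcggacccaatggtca
Mesp2: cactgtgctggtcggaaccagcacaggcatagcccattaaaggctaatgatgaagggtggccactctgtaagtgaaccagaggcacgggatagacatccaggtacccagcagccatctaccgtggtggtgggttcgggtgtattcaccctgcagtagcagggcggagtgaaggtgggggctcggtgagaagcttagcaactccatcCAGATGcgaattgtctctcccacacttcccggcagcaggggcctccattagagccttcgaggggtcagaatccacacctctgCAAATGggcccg
The Hand2 region holds 2 E-boxes, at positions 5 and 16 counted from its 5′ end, and 1 AGATAA, at position 79 and read on the opposite strand. The Tcf21 region holds 1 AGATAA, at position 220, and no CANNTG. The Mesp1 and Mesp2 regions hold 2 E-boxes each, at positions 71 and 125 and at positions 207 and 289, and no AGATAA. The Msgn1 region holds 1 E-box and no AGATAA. Of all 32851 RefSeq promoters of the same length, 72.3% hold an E-box and 11.2% hold AGATAA. The retinoic acid receptor half-site, searched as AGGTCA or GGGTCA on both strands, is found in 27.5% of promoters and, among these 5 regions, in that of Mesp2, at position 268. No 2 of these motifs overlap in the 5 regions. CpG pairs number 17 in the Hand2 region, 8 in Tcf21, 4 in Mesp1 and 10 in Mesp2, beside a median of 7 over all promoters. These matches describe letters alone; binding was not measured in these libraries.

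Hand1, Hand2 and Tcf21 were higher in the Differentiated library, Tcf15 was lower, and Mesp1, Mesp2 and Msgn1 stayed below 1 RPKM in both. A gene was called higher or lower at a 2-fold difference of RPKM + 1, a pseudocount that understates differences of weak genes. Of the 7 members 3 were called higher, where 10.0% of all 34126 genes were, and 1 was called lower, where 4.45% of all genes were. Among the 17899 genes at 1 RPKM or more in either library, the shares were 19.1% and 8.48%, and 4 of the 7 members reached that floor. Of those 4, Tcf15 alone reached it in the Undifferentiated library, so Hand1, Hand2 and Tcf21 passed the floor through the library in which they are high. With RPKM + 1 a gene below 1 RPKM in both libraries cannot reach 2-fold, so Mesp1, Mesp2 and Msgn1 could not have been called. The median log2 ratio over all 7 members was 0.0, beside 0.02 over all genes. The members' median is the value of Mesp1, which rests on 1 read in each library. Both medians hold such weak genes, whose ratios the pseudocount keeps near 0, so their likeness carries no result.

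**Figure D1:**
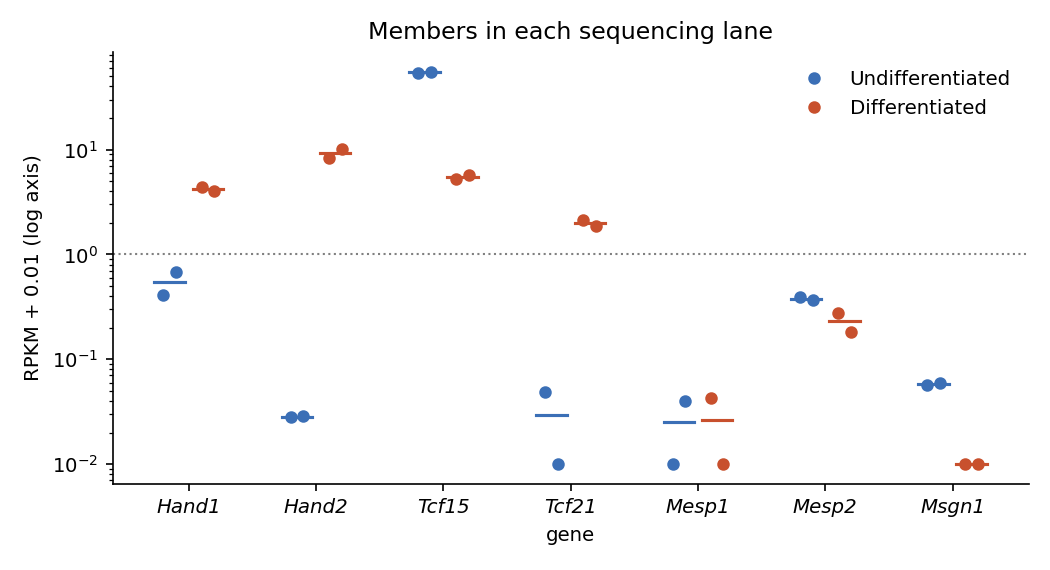
RPKM + 0.01 on a log axis for each of the 7 members, with a point for each lane, a bar for the mean of both lanes and a dotted line at 1 RPKM. The Undifferentiated and Differentiated lanes do not overlap for Hand1, Hand2, Tcf15 and Tcf21, Tcf15 is the only gene above 1 RPKM before differentiation, and Mesp1, Mesp2 and Msgn1 lie below 1 RPKM throughout.

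Hand2, a factor of the heart, the limb bud and the branchial arches, had the highest level of the members after differentiation. Its row spans mm9 chromosome 8, 59799780 to 59803314, on the plus strand, as 1 transcript with 1 promoter. It stood at 0.0179 and 0.0187 RPKM in the Undifferentiated lanes and at 8.32 and 10.1 RPKM in the Differentiated lanes. The lanes of the 2 libraries were far apart, and 73.1% of all genes were lower than Hand2 after differentiation, against 13.5% before. The log2 ratio of RPKM + 1 was 3.32, with 3.19 and 3.44 in the separate lanes, and 6.30 with a pseudocount of 0.1. In the Undifferentiated library each lane's value equalled 1 read over the 1479 bases of the first exon, that is 2 reads in all. On the same length the Differentiated values came to about 884 reads, a rate 502 times as high, with an exact 95% interval of 139 to 4151 that covers counting error only. The 2 Differentiated values did not fall on whole reads of that exon, so their read number is approximate.

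The rows beside Hand2 were weak in both libraries or of like level. Gm2818, on the opposite strand and 28 bases from the Hand2 start, was listed at 0 in both Undifferentiated lanes and at 0.275 and 0.117 RPKM in the Differentiated lanes. AV026068, a second row in the same stretch and on the same strand as Gm2818, starting 65 bases away, stood at 3.21 and 4.40 RPKM before and at 4.35 and 2.84 RPKM after, with overlapping lanes. ENSMUSG00000085268, 7600 bases beyond the Hand2 end on the same strand, was listed at 0 in both Undifferentiated lanes and at 0.142 and 1.31 RPKM after differentiation, so its level differed widely between lanes.

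Hand1, a factor of the heart, the extraembryonic mesoderm and trophoblast giant cells, was present at a low level before differentiation. Its row spans mm9 chromosome 11, 57642207 to 57646320, on the minus strand. It stood at 0.403 and 0.676 RPKM in the Undifferentiated lanes and at 4.37 and 4.04 RPKM in the Differentiated lanes. The lanes of the 2 libraries did not overlap, with means of 0.539 ± 0.193 and 4.20 ± 0.235 RPKM, a 7.79-fold difference of the plain values and a log2 ratio of 1.76. Hand1 passed 64.0% of all genes after differentiation and 47.1% before.

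The deposited tables split Hand1 between 2 first exons. The downstream exon, mm9 57644746 to 57645648, begins the RefSeq transcript NM_008213, and the upstream exon, 57646230 to 57646319, begins the Ensembl transcripts ENSMUST00000160392 and ENSMUST00000108845. The upstream exon was listed at 0.0858 and 0.406 RPKM in the Undifferentiated lanes and at 3.89 and 2.63 RPKM in the Differentiated lanes. The downstream exon was listed at 0.317 and 0.271 RPKM before and at 0.477 and 1.41 RPKM after. The upstream exon therefore held 21.3% and 60.0% of Hand1 by lane before differentiation and 89.1% and 65.2% after it. Its share was higher after differentiation in both pairs of lanes, but the highest Undifferentiated share and the lowest Differentiated share differed less than the lanes of either library. ENSMUST00000160392 shares most of its length with NM_008213, and its value of 0.000855 and 0.406 RPKM in the 2 Undifferentiated lanes, which hold the same library, shows how the split varied between lanes. In the Differentiated lanes the sum over both first exons differed less between lanes than either exon did.

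**Figure D2:**
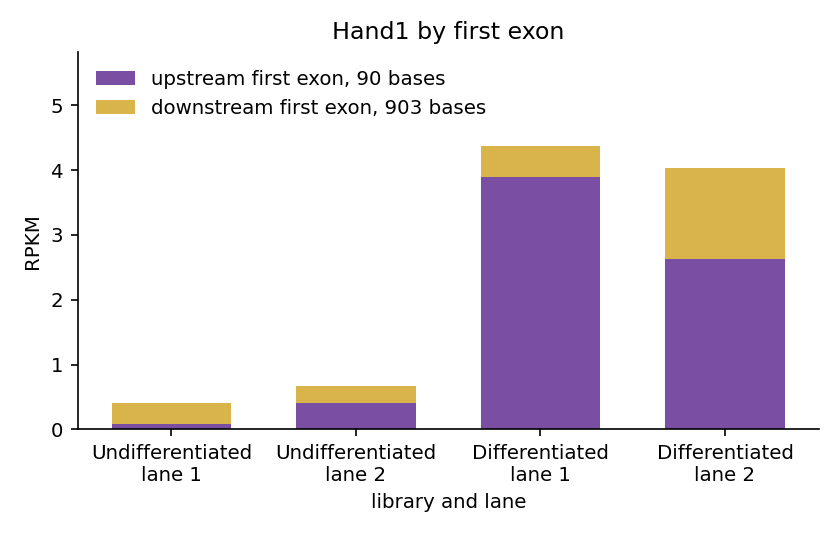
RPKM of Hand1 in each lane, stacked by the first exon to which the authors' promoter table gives it. The upstream exon holds most of the bar in both Differentiated lanes (89.1% and 65.2%) and between 21.3% and 60.0% in the Undifferentiated lanes.

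Tcf21, also called capsulin or epicardin, is a factor of epicardium and of kidney and lung mesenchyme. Its row spans mm9 chromosome 10, 22537079 to 22539934, on the minus strand. It stood at 0.0392 RPKM and 0 in the Undifferentiated lanes and at 2.11 and 1.85 RPKM in the Differentiated lanes. The lanes of the libraries did not overlap, and the log2 ratio was 1.55, or 4.12 with a pseudocount of 0.1. All 4 values were whole reads over the 675 bases of the first exon: 1 read and 0 reads before differentiation, and 47 and 40 reads after it. The rate was 98.8 times as high, with an exact 95% interval of 17.3 to 3947 that rests on that 1 read. AK033378, a row on the opposite strand that spans Tcf21 (22535555 to 22543136), was listed at 0 in 3 lanes and at 0.0397 RPKM in lane 2 of the Differentiated library. The library kit does not record the strand, so reads of the pair cannot be told apart in the stretch they share.

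Tcf15, also called paraxis, a factor of somite epithelium, went the other way. Its row spans mm9 chromosome 2, 151969297 to 151974833, on the plus strand, with 1 transcript. It stood at 53.5 and 55.6 RPKM in the Undifferentiated lanes and at 5.18 and 5.73 RPKM in the Differentiated lanes. The lanes agreed closely within each library and the libraries were far apart. Means were 54.5 ± 1.46 and 5.45 ± 0.385 RPKM, a 10.0-fold lower plain value and a log2 ratio of -3.11. All 4 values were whole reads over the 578 bases of the first exon, within 0.00037 of a read: 1168 and 1161 before, 99 and 106 after. The ratio of these rates was 0.1000, with an exact 95% interval of 0.0862 to 0.115. In the Undifferentiated library Tcf15 passed 92.5% of all genes and made up 98.2% of the members' summed RPKM. It still passed 66.9% of genes after differentiation, where it was second to Hand2 and made up 25.9% of the sum. A row named Ncoa3 overlaps Tcf15 only because it joins places far apart on chromosome 2 (48669677 to 165898742).

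Mesp1 and Mesp2, neighbours on mm9 chromosome 7 whose starts lie 16938 bases apart on opposite strands, were weak or nearly absent in both libraries. Mesp1 (86937127 to 86938674), the early factor of heart and head mesoderm, was listed at 0 and 0.0299 RPKM in the Undifferentiated lanes and at 0.0327 RPKM and 0 in the Differentiated lanes. This is 1 read in each library over the 924 bases of the first exon, so no difference was detectable at this depth. Mesp2 (86955613 to 86958317), which sets segment borders with Notch signalling, stood at 0.381 and 0.358 RPKM before and at 0.268 and 0.173 RPKM after. The lanes of Mesp2 did not overlap, but its log2 ratio was only -0.17. On the length of its first exon the values came to about 28 and 15 reads, a ratio of 0.608 whose interval of 0.302 to 1.18 includes 1. The lane values did not fall on whole reads of that exon, so these read numbers and the interval are approximate.

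Msgn1, mesogenin, a factor of presomitic mesoderm, has a row of 1 exon on mm9 chromosome 12, 11215188 to 11215754. It was listed at 0.0467 and 0.0488 RPKM in the Undifferentiated lanes, 1 read each over its 567 bases, and at 0 in both Differentiated lanes. The exact 95% Poisson interval of a count of 0 reaches 3.69 reads over both lanes. Already 3 reads, or 0.0813 RPKM, would lie above the Undifferentiated level, so no difference was detectable.

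The order of the members differed between the libraries. Before differentiation it was Tcf15, Hand1 and Mesp2, followed by Msgn1, Tcf21, Hand2 and Mesp1. Each of these last genes rested on 1 or 2 reads, so their order among themselves is not resolved. After differentiation the order was Hand2, Tcf15, Hand1, Tcf21, Mesp2, then Mesp1 and Msgn1, whose lanes overlapped. Tcf15, Hand1 and Mesp2 thus kept their order relative to each other, and Hand2 and Tcf21 moved up. The members' summed RPKM was 54.4 and 56.7 by lane before differentiation and 20.3 and 21.9 after it, of which Hand2 made up 43.7% and Hand1 19.9%. In bulk RNA, fewer cells of a type and less RNA per cell cannot be told apart, so these levels do not say whether few cells or many held each factor.

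**Figure D3:**
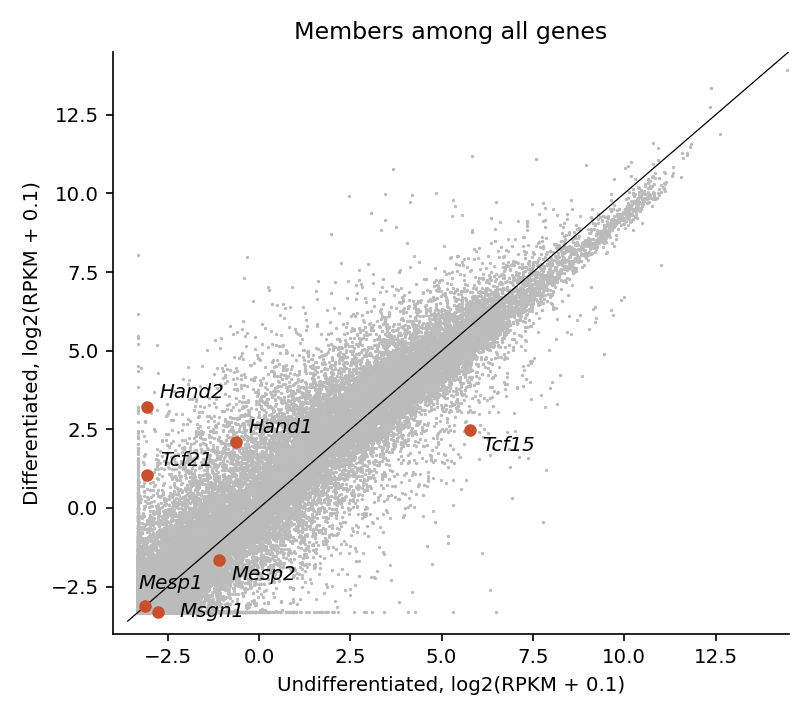
Each grey point is a gene, by log2(RPKM + 0.1) in the Undifferentiated (x) and Differentiated (y) library, with the members in colour and the line of equal values. Hand2 and Tcf21 lie at the left edge above the line, Hand1 above it, Tcf15 below it, and Mesp1, Mesp2 and Msgn1 in the corner of genes with few reads.

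The partners of these factors were expressed before and after. All 7 genes of the E-protein and Id list were at 1 RPKM or more, and 4 were called higher and none lower. Over all genes at the floor 19.1% were called higher and 8.48% lower. The list's median log2 ratio was 1.89, beside 0.12 for all genes at the floor. Tcf3, which encodes the E-proteins E12 and E47, stood at 54.2 ± 1.86 and 58.7 ± 4.46 RPKM (log2 ratio 0.11). Tcf4, the E-protein E2-2, stood at 10.7 ± 0.163 and 14.1 ± 0.481 RPKM (0.37). The third E-protein gene, Tcf12, encoding HEB, was higher, at 5.49 ± 0.628 and 23.1 ± 0.263 RPKM (1.89).

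Among the inhibitors, which are also targets of Bmp signalling, 3 of 4 were higher, beside 19.1% of all genes at the floor. Id1 stood at 24.0 ± 0.668 and 122 ± 0.635 RPKM (2.30), Id2 at 17.2 ± 1.02 and 98.6 ± 0.292 (2.46) and Id3 at 31.04 ± 1.17 and 153 ± 2.12 (2.27). Id4 stood at 7.99 and 10.00 RPKM by lane before and at 9.88 and 9.35 RPKM after (0.09), and its ratio was negative in lane 2 (-0.09). Every E-protein and Id gene except Id4 was above Hand2 in both Differentiated lanes, and the lanes of Id4 overlapped those of Hand2.

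**Figure D4:**
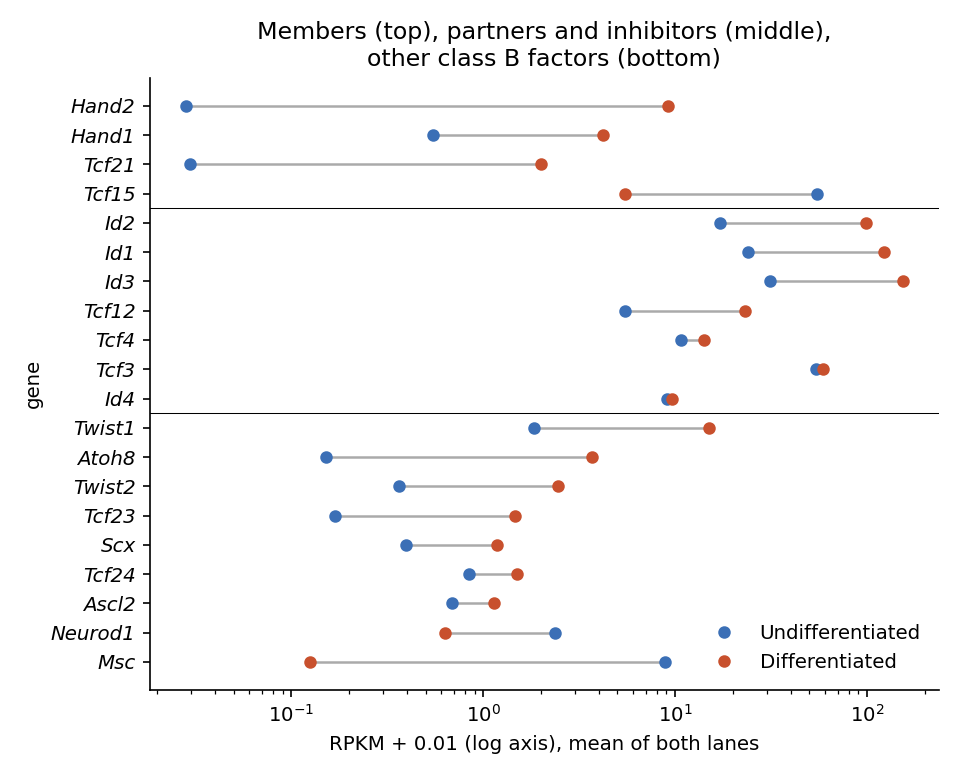
RPKM + 0.01 on a log axis, as the mean of both lanes, for helix-loop-helix genes at 1 RPKM or more in either library, with blue for Undifferentiated and orange for Differentiated and a line joining them. By these means members start and end lower than the partners and inhibitors, apart from Tcf15 before differentiation, and Id1, Id2 and Id3 are the genes with the highest levels after it.

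Most other class B factors stayed below 1 RPKM. Of 39 listed, 33 were matched and 9 reached 1 RPKM in either library, of which 4 were called higher and 2 lower. Over all genes at that floor the shares were 19.1% and 8.48%. Of the genes called higher, Twist1 alone was at 1 RPKM or more before differentiation, so the others passed the floor through the Differentiated library. The median log2 ratio was 0.64 at the floor and 0.05 over all 33 matched genes. Twist1, a factor of mesenchyme, stood at 1.82 ± 0.0565 and 14.9 ± 1.59 RPKM (log2 ratio 2.50), and Atoh8 at 0.141 ± 0.00438 and 3.69 ± 0.573 (2.04). Msc, musculin, a muscle repressor, was the lowest, at 8.84 ± 1.64 and 0.115 ± 0.0279 RPKM (-3.14), a ratio like that of Tcf15. Twist2, named after its values were seen, stood at 0.354 and 2.45 RPKM (1.35). Neurod1, named likewise, was the other lower gene, at 2.35 and 0.624 RPKM (-1.04).

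Genes of the same parts of the mesoderm were counted from lists. Among all genes at the floor 19.1% were called higher and 8.48% lower. In each list, genes that started below 1 RPKM reached the floor only through the Differentiated library, in which they are high. In the lateral plate and heart list 14 of 21 genes at 1 RPKM or more were called higher, against 1 lower, with a median of 1.44 (1.10 over all 28 members). Gata4 and Gata6, zinc finger factors that act with Hand2 in the heart and that also drive extraembryonic endoderm, stood at 1.10 ± 0.245 and 123 ± 7.94 RPKM (5.89) and at 1.01 ± 0.0993 and 52.1 ± 1.05 RPKM (4.72). Myl2, a ventricular myosin light chain, was lower, at 2.28 ± 2.92 and 0.147 ± 0.208 RPKM (-1.52), on the strength of lane 1 alone (-2.42 and 0.09 in the separate lanes). Other contractile genes of this list were named after their values were seen. Actc1 stood at 0.823 and 43.2 RPKM (4.60), Myh6 at 1.63 and 7.51 RPKM (1.69) and Myh7 at 1.46 and 6.97 RPKM (1.70). Myl7 (0.27), Myl4 (-0.17), Tnnt2 (0.22) and Tnni1 (0.21) did not reach 2-fold. Named after their values were seen, Foxf1a, a forkhead factor of splanchnic mesoderm, was listed at 0 in both Undifferentiated lanes and stood at 3.06 and 4.15 RPKM after, and Nkx2-5, a homeobox factor of the heart, stood at 0.421 and 3.04 RPKM (1.51). Tbx5, a heart and forelimb factor, named likewise, stayed low (0.0335 and 0.135 RPKM).

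In the epicardium and mesothelium list, the setting of Tcf21, 7 of 10 genes at the floor were higher and none lower (median 1.17). Most of the genes called higher, Wt1 and Lrrn4 among them, passed the floor through the Differentiated library alone. The median over all 11 matched genes was 1.12. Wt1, the Wilms tumour zinc finger factor, stood at 0.801 ± 0.164 and 16.6 ± 2.68 RPKM (3.29), and Lrrn4 at 0.821 ± 0.378 and 4.41 ± 0.0177 RPKM (1.57). Bnc2, basonuclin 2, had the lowest ratio, at 4.52 ± 0.390 and 1.91 ± 0.182 RPKM (-0.92).

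The paraxial mesoderm and segmentation clock list, the setting of Tcf15, Msgn1 and Mesp2, was mixed. Of the 14 genes that reached the floor 7 were called higher and 1 lower, and the median was 0.94, or 0.27 over all 21 matched genes. Foxc1, a forkhead factor of presomitic and somitic mesoderm, stood at 0.0886 ± 0.0410 and 2.98 ± 0.0669 RPKM (1.87), and Rspo3, a secreted Wnt enhancer, at 0.417 ± 0.200 and 3.33 ± 0.198 RPKM (1.61). Ripply1, a repressor that closes segmentation, was lower, at 4.20 ± 0.0345 and 0.697 ± 0.156 RPKM (-1.61). Axin2, a Wnt target, had the highest Differentiated level of the genes called higher in this list (8.29 RPKM, named after its value was seen).

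Genes of the primitive streak, the setting of Mesp1, did not lean upward. Of 11 genes at the floor 3 were higher and 4 were lower, with a median of -0.31 (-0.04 over all 22). Pdgfra, a growth factor receptor that extraembryonic endoderm also carries, stood at 1.14 ± 0.0702 and 49.2 ± 0.116 RPKM (4.55), and the repressor Snai1 at 4.63 ± 0.198 and 27.2 ± 1.35 RPKM (2.33). Fgf4, a growth factor that ES cells themselves make, was the lowest, at 50.7 ± 0.473 and 1.77 ± 0.378 RPKM (-4.22). T, or brachyury, named after its values were seen, stood at 0.253 and 0.352 RPKM before and at 0.289 and 0.231 RPKM after. Tbx6, a regulator of presomitic mesoderm named likewise, stood at 0.407 and 0.853 RPKM, with 0.432 and 1.27 RPKM in the Differentiated lanes.

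**Figure D5:**
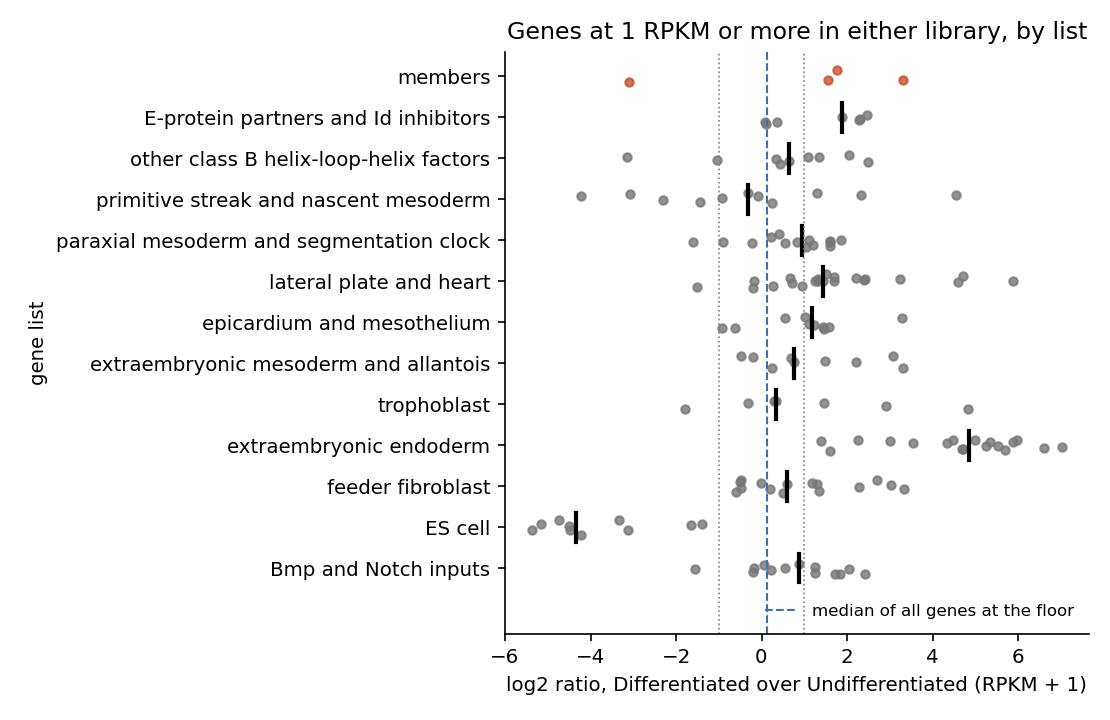
Log2 ratio of RPKM + 1, Differentiated over Undifferentiated, for each gene at 1 RPKM or more in either library, 1 row of points per list. Black bars are list medians, dotted lines mark 2-fold and the dashed line is the median of all such genes (0.12). Extraembryonic endoderm lies farthest to the right and ES cell genes farthest to the left, and the members' points lie on both sides.

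Markers of other cell types moved with these differences, and their part in the members' values was not tested. All 18 extraembryonic endoderm genes were higher (median 4.86), with a summed level of 115 to 123 RPKM in the Undifferentiated and 6741 to 6832 RPKM in the Differentiated lanes. Afp and Ttr (named after their values were seen) were listed at 0 in lane 2 of the Undifferentiated library, and the other genes of the list in no lane. Their ratios ran from 1.40 (Hnf4a) to 6.61 (Pth1r) and 7.03 (Col4a1). All 10 ES cell genes were lower (median -4.35), from a sum of 1974 to 1992 RPKM to 147 to 161 RPKM, with ratios from -5.38 (Esrrb) to -1.65 (Klf4) and -1.40 (Tbx3). In the extraembryonic mesoderm list 4 of 9 genes at the floor were higher and none lower (median 0.77, or 0.47 over all 12 genes). The highest ratios were those of Ets1 (0.784 ± 0.139 and 16.5 ± 0.0628 RPKM, 3.30) and Pitx1 (0.0772 ± 0.0494 and 8.09 ± 1.07 RPKM, 3.08). Both passed the floor through the Differentiated library alone. The summed level of that list was 76.9 to 78.8 RPKM before and 181 to 184 RPKM after, and most of that gain was Ahnak (42.7 and 122 RPKM). Bmp4 stood at 28.8 and 25.1 RPKM and Postn at 2.69 and 1.63 RPKM, neither past 2-fold; these 3 were named after their values were seen.

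Trophoblast, another site of Hand1, gave 3 higher and 1 lower of 7 genes at the floor (median 0.34). Of its 14 genes 13 were matched, with a median of 0.19 over all of these. The sum of the trophoblast list was 42.7 and 43.7 RPKM by lane before and 292 and 70.2 RPKM after. The gap between lanes was due to Krt7 (4.09 ± 1.56 and 145 ± 152 RPKM). Plac1, a placental gene, had a ratio of 2.92 and Tfap2c the lowest, -1.79. Of the defining markers (named after their values were seen), Cdx2, Elf5, Gcm1 and Tpbpa lay between 0 and 0.680 RPKM in every lane, and Eomes stood at 2.15 RPKM before and 1.55 RPKM after. Esx1, a placental homeobox gene named likewise, stood at 2.53 and 8.80 RPKM (1.47). Of 15 feeder fibroblast genes at the floor 7 were higher and none lower (median 0.59), led by Col1a1 (3.33) and Col3a1 (3.02), with Fap at the other end (-0.59). Their sum was 245 to 251 RPKM in the Undifferentiated library, whose cells grew with feeders, and 581 to 582 RPKM in the Differentiated library. The labels give the same estimate of remaining feeders, under 0.25%, for both libraries. They give 2% dead cells for the Undifferentiated and 8% for the Differentiated sample. Of Bmp and Notch genes, known to act upstream of Hand and Mesp genes, 6 of 13 were higher and 1 was lower (median 0.87). Over all genes at the floor the shares were 19.1% and 8.48%. Bmp2 stood at 0.276 ± 0.0364 and 5.89 ± 0.504 RPKM (2.43), Smad1 at 1.94 ± 0.00890 and 11.2 ± 1.06 RPKM (2.05) and Rbpj, the DNA-binding partner of Notch, at 123 ± 4.48 and 41.4 ± 2.83 RPKM (-1.55).

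Other genes had levels close to those of single members, by distance over the 2 library means on the log2(RPKM + 0.1) scale among 12158 genes with informative symbols. Closest to Hand2 were Igfbp7 (listed at 0 and at 9.17 RPKM, distance 0.24), Hoxa5 (0.0294 and 7.93 RPKM, 0.25) and Hoxb3os (listed at 0 and at 8.54 RPKM, 0.26). Closest to Hand1 were Isoc2b (0.530 and 4.10 RPKM, 0.04), Prkd1 (0.519 and 4.22 RPKM, 0.05) and Tgfb3 (0.528 and 4.09 RPKM, 0.05). Closest to Tcf21 were Foxl2os (0.0279 and 1.86 RPKM, 0.13), Rasgrf1 (0.0319 and 2.02 RPKM, 0.14) and Serpinb9e (0.0123 and 1.77 RPKM, 0.18). Among the genes close to Tcf15 were Socs2 (50.5 and 6.67 RPKM, 0.31) and Hsd17b14 (65.5 and 6.10 RPKM, 0.31). With 2 libraries such likeness is a match of 2 levels and nothing more.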

How the data were processed

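RNA of 1 Undifferentiated and 1 Differentiated culture was sequenced on 2 lanes each with single-end reads of 36 bp, per the labels' protocols. The authors deposited gene, promoter and transcript tables whose unit is not named. Values were read as RPKM because, in single-exon genes, value times length fell on whole multiples of a constant (90.3% to 92.2% of 973 to 1015 low values a lane, within 5% of a read). That constant implied 37800000 and 36200000 reads in the lanes of the Undifferentiated library and 33100000 and 32000000 in those of the other. In models of 2 exons, 55.0% to 68.7% of 69 to 83 low values a lane were whole reads over the length of a single exon, and 0% to 1.2% over the summed length, so a deposited RPKM can rest on 1 exon. The build is mm9 according to the submitters' processing notes, and row starts are printed 1-based. The sources used here do not give the aligner, counter, annotation or treatment of multiply matching reads.

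Log2 ratios were taken of RPKM + 1 with Python 3.11.15, numpy 2.4.6, pandas 2.3.3 and scipy 1.17.1, and checked on simulated data. Calls need 2-fold. Read ratios have exact 95% binomial intervals. Of 238 symbols with several rows, the row of highest mean was kept. Members and 12 gene lists were chosen with earlier results of these data known. Named genes were all members, partners and Id genes, the 2 highest and 1 lowest ratio of each other list at 1 RPKM or more, the 3 genes nearest to each such member, and rows beside members; 1 gene near Tcf15 is not reported here. Tfap2c was matched through a synonym. Ascl5, Neurod6, Ferd3l, Myod1, Myf5, Myf6, Ripply2 and Prl3d1 found no row and were not used here. Alternatives in pseudocount, scaling, lane, floor, fold and table were tried.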

Additional observations from a re-analysis of the deposited data

How the results depend on the processing

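The calls of 3 members higher and 1 lower held with a pseudocount of 0.1, with trimmed mean scaling, median centring, equal column sums and in each lane alone. With a 4-fold difference 1 member, Hand2, was called higher and 1, Tcf15, lower. Over these settings and the sums of the promoter and transcript tables, log2 ratios ranged from 1.59 to 2.75 for Hand1, 3.17 to 6.30 for Hand2, 1.42 to 4.12 for Tcf21 and -3.30 to -2.90 for Tcf15. Those of Mesp1 ranged from -0.12 to 0.05, so its ratio has no direction, and Mesp2 (-0.55 to -0.12) and Msgn1 (-0.56 to -0.07) stayed between the 2-fold bounds. Ratios of read numbers, which carry no pseudocount, lay outside these ranges: 8.97 for Hand2, 6.63 for Tcf21, -3.32 for Tcf15, 0.19 for Mesp1 and -0.72 for Mesp2. Centring moved every log2 ratio by -0.12. Trimmed mean scaling and equal column sums moved ratios of strongly expressed genes by about -0.17 and 0.24, and those of weak genes by less. List values depended on the floor. At 5 RPKM, where fewer genes enter, the median of the other class B factors turned from 0.64 to -0.32 (1 gene higher, 1 lower), and that of the paraxial list fell to 0.44, with 1 gene higher and none lower. Medians became 2.38 for the epicardium (2 genes higher), -1.87 for the primitive streak, 2.29 for the extraembryonic mesoderm, 2.29 for the feeder and 1.47 for the trophoblast list, and no lateral plate gene was lower. With a pseudocount of 0.1 medians became 1.38 (other class B), 2.41 (lateral plate), 2.12 (epicardium), 1.51 (extraembryonic mesoderm) and 0.66 (trophoblast). The epicardium list, with no gene lower, had 1 lower under trimmed mean scaling and centring and 2 with that pseudocount, and the primitive streak median ranged from -0.60 in lane 1 to -0.13 in lane 2. Depth limits Mesp1, Msgn1 and the Undifferentiated values of Hand2 and Tcf21, each of which rests on 1 or 2 reads. No paired analysis was possible because each group is 1 library.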
